A study of Homo sapiens with 29 samples.

Results

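Where MCRS1 and YY1 sit on the genome of HepG2 cells was compared through the 2 deposited peak lists, which hold 23425 MCRS1 peaks and 39293 YY1 peaks of the 151036 peaks in the 9 deposited lists. Peaks of the 2 factors that shared at least 1 bp were joined into 1 place, which gave 43662 places. Both factors held 17588 of them, MCRS1 alone held 5533 and YY1 alone held 20541. A place was called a promoter when it lay within 1 kb of the start of a protein-coding transcript (GENCODE annotation lifted to hg19) and distal otherwise, and a gene was counted for a factor when a peak of it lay within 1 kb of any of its coding starts.

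HepG2 is an established human liver cancer cell line, used here without treatment. MCRS1 was mapped by chromatin immunoprecipitation and sequencing (ChIP-seq) from 2 libraries, A and B, with 1 antibody against MCRS1, after fixation in 0.3% formaldehyde for 30 min per the labels' protocols. YY1 in HepG2 has no sample record: per the series' design text its list was made by the authors' pipeline from reads of the ENCODE project, and its libraries, antibody and fixation are not described there. The factor therefore cannot be told apart from the laboratory, the antibody and the fixation. INO80, RUVBL1 and RUVBL2 in HepG2, and INO80, MCRS1 and YY1 in Huh7, a second established liver cancer line, are used below as readouts that did not define the classes. Each factor and line has 1 deposited list with positions only, so there is no replicate error, no peak height and no known depth. Intervals after a share are 95% Wilson intervals, which cover counting error only and are too narrow where neighbouring peaks or genes depend on each other.

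MCRS1 is a subunit of the NSL complex, which acetylates histone H4 through KAT8, and of the INO80 complex, which moves and edits nucleosomes with the ATPase INO80 and the ring-forming helicases RUVBL1 and RUVBL2. YY1 is a zinc-finger protein that reads DNA directly, is found with the INO80 complex, binds at promoters and enhancers, and is known for sites just downstream of transcription starts.

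Sequences of hg19 under places of each class are printed first, because the classes differ in the letters they hold. Capitals mark a match to AANATGGC, the core letters that YY1 reads, on either strand. At the starts of ACTR5, an actin-related subunit of the INO80 complex, and of HCFC1, a cell-cycle coregulator in the NSL complex, the letters lay on the gene's own strand, with their middle 20 bp and 7 bp downstream of the nearest annotated start. These 2 starts were chosen after the values were seen. Both lie in places held by both factors, and the bases about the start are shown on the gene's strand, running into an exon.
ACTR5 start, chr20:37377033-37377132, plus strand: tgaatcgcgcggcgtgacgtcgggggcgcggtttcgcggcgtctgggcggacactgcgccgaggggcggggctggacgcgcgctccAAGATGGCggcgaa
HCFC1 start, chrX:153237240-153237339, minus strand: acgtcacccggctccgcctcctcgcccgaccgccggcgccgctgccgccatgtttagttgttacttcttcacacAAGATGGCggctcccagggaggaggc
The widest place of both factors with such a match held it in an intron of ZMYND8, a reader of histone acetylation, for promoters. For distal places it was in an intron of HM13, a peptidase of the endoplasmic reticulum (plus strand). The ZMYND8 match lay 1401 bp downstream of the nearest start, and its place is called a promoter because the place as a whole comes within 1 kb of a start.
ZMYND8, chr20:45982940-45983059: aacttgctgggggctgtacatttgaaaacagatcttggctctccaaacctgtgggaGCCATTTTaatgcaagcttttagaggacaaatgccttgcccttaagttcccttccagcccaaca
HM13, chr20:30158922-30159041: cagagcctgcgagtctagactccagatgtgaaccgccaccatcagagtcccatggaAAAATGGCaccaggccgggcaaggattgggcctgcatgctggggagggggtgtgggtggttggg

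YY1-alone places are shown for HMGB3, a chromatin protein gene on chromosome X, and for an intron of ASMTL in the region shared by chromosomes X and Y, where the letters recur in tandem (plus strand).
HMGB3, promoter, intron, 568 bp downstream of the start, chrX:150152387-150152506: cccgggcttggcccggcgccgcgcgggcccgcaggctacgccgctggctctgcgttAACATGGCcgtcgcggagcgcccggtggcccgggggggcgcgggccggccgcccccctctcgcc
ASMTL, distal, intron, chrX:1566927-1567046: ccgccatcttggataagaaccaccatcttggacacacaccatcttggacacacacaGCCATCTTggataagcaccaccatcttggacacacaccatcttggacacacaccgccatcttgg
Distal YY1-alone places also held letters read by CTCF, the insulator protein, shown in capitals for an intron of SYN3, an example chosen after the values were seen (plus strand).
SYN3, distal, intron, chr22:32925044-32925163: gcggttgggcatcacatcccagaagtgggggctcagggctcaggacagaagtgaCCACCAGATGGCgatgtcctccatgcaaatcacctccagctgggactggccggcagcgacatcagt

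For MCRS1 alone the widest promoter places with and without the YY1 letters within 100 bp of the peak centre are shown (plus strand). The widest distal place, which has none in that window, is shown as well. A distal place with the letters was found by the same rule and is not shown. The match near FBXO31, a ubiquitin ligase subunit, lay in an exon 63 bp downstream of its start. The places with no match lay over LPAR6 and RB1, genes that overlap, and in an intron of C7orf50, where a short unit repeats. The LPAR6 stretch shown is centred 1719 bp downstream of the nearest start, though its place comes within 1 kb of one.
FBXO31, promoter, exon, chr16:87423378-87423407: aacagactgtaGCCATCTTctgaacgctgt
LPAR6 and RB1, promoter, exon, chr13:48985515-48985544: tggttttatttcaggcagcagattcattgt
C7orf50, distal, intron, chr7:1042532-1042651: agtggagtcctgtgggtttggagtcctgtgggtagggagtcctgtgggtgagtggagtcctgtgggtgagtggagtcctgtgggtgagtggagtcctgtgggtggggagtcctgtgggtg

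MCRS1 and YY1 met mainly at promoters, and most places away from promoters held YY1 alone. Of the 23425 MCRS1 peaks, 76.4% (75.8 to 76.9) overlapped YY1, whereas 47.7% (47.2 to 48.2) of the YY1 peaks overlapped MCRS1. In bases the lists were alike in size, 21.4 Mb for MCRS1 and 20.6 Mb for YY1, and the 12.9 Mb they shared made up 60.2% and 62.5% of them. Of the 12872 promoter places, both factors held 80.1%, MCRS1 alone 6.22% and YY1 alone 13.7%. Of the 30790 distal places, both held 23.6%, MCRS1 alone 15.4% and YY1 alone 61.0%. Read by class, 58.6% (57.9 to 59.3) of the places with both were promoters, against 14.5% (13.6 to 15.4) of those with MCRS1 alone and 8.58% (8.21 to 8.97) of those with YY1 alone. The order of the MCRS1-alone and YY1-alone shares turned when only the wider 50% of each list was used (21.6% and 31.4%, beside 73.9% for both).

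Peak width moved with the overlap. MCRS1 peaks that met YY1 had a median width of 882 bp and those that did not 225 bp, and for YY1 the medians were 708 and 211 bp. From the narrowest to the widest of 5 equal parts of the MCRS1 list, the share with YY1 was 37.8%, 61.2%, 88.7%, 95.7% and 98.6%. For the YY1 list it was 10.3%, 14.7%, 34.3%, 81.6% and 97.8%. Nearly all wide peaks of either factor were shared, and the places of 1 factor alone were mostly narrow. When each peak was replaced by the 200 bp around its middle, 49.9% of the MCRS1 peaks met YY1 and 29.8% of the YY1 peaks met MCRS1. Near the limits of the classes, 2.57% of the overlapping MCRS1 peaks shared 50 bp or less with YY1, and 824 places lay more than 500 and up to 1000 bp from a coding start against 880 places in the next 500 bp.

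**Figure D1:**
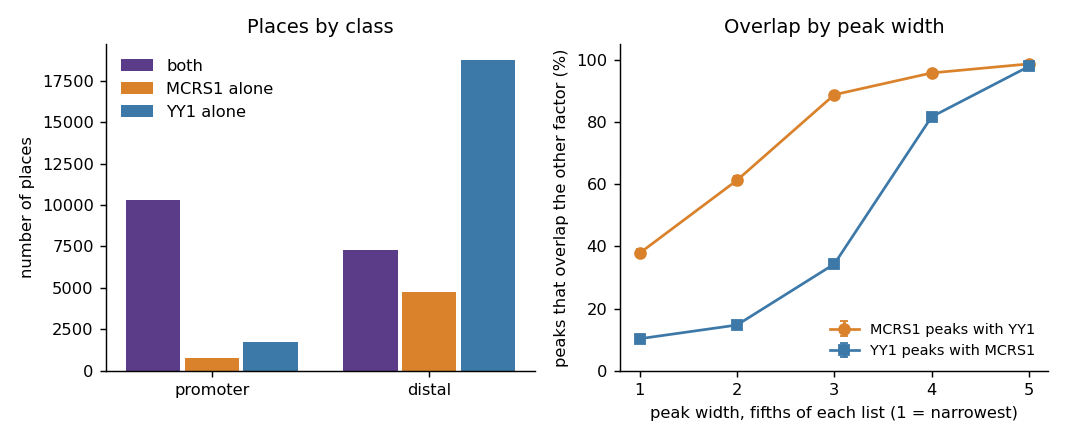
Left, the number of places (vertical axis) held by both factors, MCRS1 alone or YY1 alone, at promoters and distal. Right, the percent of peaks that overlap the other factor by 5 equal parts of each list ordered by width, points with 95% Wilson intervals; it climbs from 37.8% to 98.6% for MCRS1 and from 10.3% to 97.8% for YY1.

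INO80, the ATPase subunit, was found most often where both factors lay. In HepG2 it was present at 84.2% (83.6 to 84.7) of the places with both, 31.7% (30.5 to 33.0) of those with MCRS1 alone and 9.59% (9.19 to 10.00) of those with YY1 alone. At promoters the shares were 94.2%, 53.4% and 35.0%, and at distal places 69.9%, 28.1% and 7.20%. RUVBL2, a ring helicase of the complex, was at 66.3% of the promoters with both, 10.9% with MCRS1 alone and 1.47% with YY1 alone, and its distal shares were 36.1%, 15.8% and 0.825%. RUVBL1, its partner, had 28.0%, 2.38% and 0.454% at promoters and 20.3%, 4.58% and 0.442% at distal places. All 3 subunits together were found at 24.1% of the promoters with both and at 1 of the 1763 promoters with YY1 alone. The subunit lists, like the MCRS1 list, come from the authors' own libraries, and YY1 in HepG2 does not, so laboratory and class cannot be told apart in the lower shares at YY1 alone.

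INO80 was also more frequent at shared places than at places of either factor alone within bands of that factor's summed width. The width of the other factor in a shared place was not matched, so shared places in a band can be longer. Whether that length accounts for the gap was not tested. MCRS1 alone and YY1 alone were not compared with each other within a band. Among distal places whose MCRS1 peaks summed to at most 250 bp, INO80 was at 41.0% (38.5 to 43.5) of those with both and 19.6% (18.1 to 21.1) of those with MCRS1 alone. Among distal places whose YY1 peaks summed to at most 250 bp, it was at 44.7% (42.1 to 47.3) with both and 4.55% (4.21 to 4.91) with YY1 alone. Above 1000 bp of YY1 at distal places, INO80 was at 96.9% of 1117 places with both and 44.4% of 36 with YY1 alone. At promoters with over 1000 bp of MCRS1 the shares were 99.2% with both and 80.6% of 31 with MCRS1 alone.

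**Figure D2:**
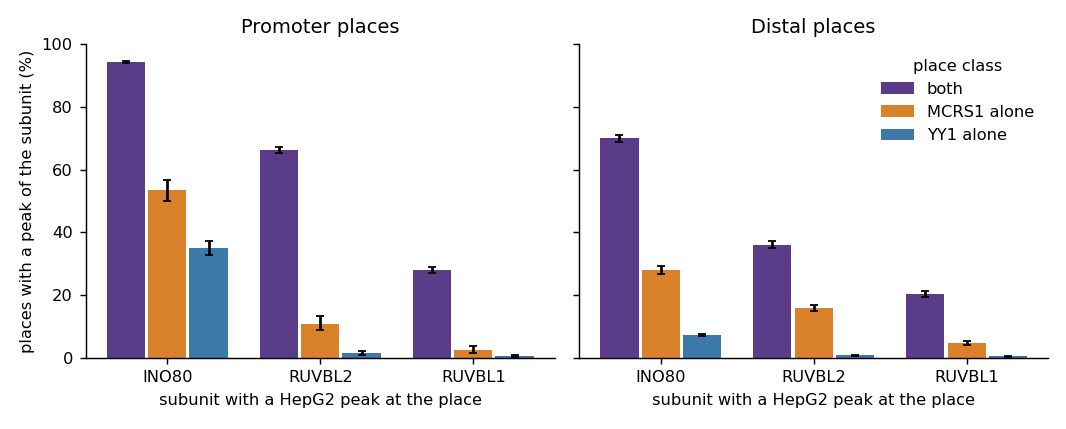
Percent of places with a HepG2 peak of INO80, RUVBL2 or RUVBL1, at promoters (left) and distal places (right), by class; bars have 95% Wilson intervals. In each group the bar for both is the tallest, followed by MCRS1 alone and YY1 alone.

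Within shared places the 2 factors were usually 1 peak each (92.9%), and the MCRS1 peak was the wider. At promoters the median widths of such pairs were 1074 bp for MCRS1 and 904 bp for YY1, the YY1 peak lay wholly inside the MCRS1 peak in 40.3%, and the reverse held in 13.7%. The centres lay a median of 123 bp apart. Across the 9411 promoter pairs the widths of the 2 factors had a Spearman correlation of 0.70, and across the 6936 distal pairs 0.51, a description over places that share their lists and their surroundings. MCRS1 was set further into the gene: at promoters with starts on 1 strand its centre lay downstream of the YY1 centre in 59.4% (58.4 to 60.5), by a median of 38 bp. Measured from the nearest coding start, the centre of YY1 peaks at shared promoters was at a median of 21.0 bp downstream and that of MCRS1 peaks at 56.0 bp.

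Promoter places of 1 factor differed in where they sat. Shared promoters reached over a coding start in 94.8% of cases and YY1-alone promoters in 51.4%, whereas MCRS1-alone promoters did so in 19% (16.4 to 21.9). The MCRS1-alone peaks lay beside the start, with the quartiles of the signed distance from start to centre at -337 and 525 bp, and 13.4% of them were centred within 100 bp of a start, against 41.2% of YY1-alone peaks. Many were also close to YY1: 55.8% of the 800 MCRS1-alone promoter places had a YY1 peak within 1 kb, against 23.7% of the YY1-alone promoter places with MCRS1 within 1 kb. At distal places the median gap from MCRS1 alone to the nearest YY1 peak was 1993 bp, and from YY1 alone to the nearest MCRS1 peak 26274 bp.

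The 5 widest shared promoter places had between 7533 and 11232 shared bp. IGF2, the insulin-like growth factor of fetal liver, had 11232 shared bp (chromosome 11, 2148945 to 2162083), SLC16A3, a lactate exporter, 9648 bp, TNRC18 8849 bp, DHRS2, a dehydrogenase, 8003 bp, and IRF2BP2, a transcriptional corepressor, 7533 bp. INO80, RUVBL1 and RUVBL2 also held all 5. Of the 5 widest shared distal places, 2 were neighbouring blocks of the 5S ribosomal RNA genes on chromosome 1 (12165 and 7338 shared bp), a tandem array of near-identical copies in which the copy a read came from is uncertain. The others lay in ASPSCR1 (8153 bp), in an intron of HLF, a transcription factor of the liver clock output (4368 bp), and over the non-coding genes MRPL23-AS1 and LINC01219 (4309 bp).

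The widest places of MCRS1 alone were smaller. The distal ones all overlapped coding genes: C7orf50 (3954 bp), the body of APOB, the protein of low-density lipoprotein (3463 bp, 16182 bp from its start), RPL13A, a ribosomal protein gene (2939 bp), CHKA, choline kinase (2873 bp), and NOTUM, a hepatic Wnt antagonist (2704 bp). INO80, RUVBL1 and RUVBL2 were present at 4 of these 5, the exception being C7orf50 with RUVBL2 only. For promoters they were within 1 kb of a start of LPAR6 (2722 bp), SLC38A2, a glutamine transporter (2436 bp), FGL1, a hepatokine (2093 bp), B3GALT4 (1816 bp) and CLCF1, a cytokine (1745 bp). The places of SLC38A2, B3GALT4 and CLCF1 reached over a start, and those of LPAR6 and FGL1 lay 359 and 559 bp from one. INO80 was at all 5 of these.

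The widest YY1-alone promoters were those of RBBP7, a histone chaperone gene on chromosome X (1987 bp), SLC37A4, the glucose 6-phosphate transporter (1954 bp), CSK, a kinase that restrains SRC (1828 bp), HMGB3, also on chromosome X (1772 bp), and WSB2, a ubiquitin ligase adaptor (1583 bp). INO80 was at 3 of them and RUVBL2 at SLC37A4 only. The widest distal ones were near EGFL7 (2126 bp), in CDKN1B, a cell-cycle inhibitor (1718 bp), in ASMTL on chromosomes X (1713 bp) and Y (1637 bp), which are copies of the same region, and near CHST15 (1632 bp).

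Of 19812 coding genes, 58.1% had MCRS1 and 62.6% had YY1 within 1 kb of a start. Both were at 11249 genes (56.8%), MCRS1 alone at 262 (1.32%), YY1 alone at 1144 (5.77%) and neither at 7157 (36.1%). Genes with MCRS1 but no YY1 were thus few, and 98.5% of the genes with both had them in 1 shared place. INO80 was at 95.2% of the genes with both, 66.8% (60.9 to 72.2) of those with MCRS1 alone, 45.3% (42.4 to 48.2) of those with YY1 alone and 16.9% of those with neither. Of the 2508 genes with another coding gene's start on the opposite strand within 1 kb, 91.1% had both, against 51.8% of the other 17304. The count of MCRS1-alone genes became 517 and that of YY1-alone genes 641 when the YY1 list was cut to its widest peaks, as many as MCRS1 has, and 158 and 2458 with the wider 50% of each list.

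The genes of the 2 complexes that MCRS1 belongs to carried both factors, with 1 exception. All 16 INO80 complex genes had both: INO80 itself (MCRS1 1509 bp wide, YY1 1197 bp), INO80B (919 and 909), INO80C (758 and 748), INO80D (2545 and 2449), INO80E (2384 and 1357), the actin-related ACTR5 (1507 and 1112), ACTR8 (760 and 964) and ACTL6A (1498 and 1132), and actin itself, ACTB (9226 and 1455). The helicase genes differed: RUVBL1 had 822 bp of MCRS1 and 725 bp of YY1, and RUVBL2 had 197 and 898 bp with no INO80 peak. UCHL5, a deubiquitinase (1388 and 977), NFRKB (1067 and 497) and TFPT (636 and 774) also had both. YY1 occupied its own promoter over 2829 bp, all of it shared with MCRS1, and the MCRS1 gene had 1173 bp of MCRS1 and 760 bp of YY1.

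Of the 9 NSL complex genes, 8 had both: KAT8, the acetyltransferase (890 bp of MCRS1 and 741 bp of YY1), its scaffold genes KANSL1 (2703 and 2591), KANSL2 (1233 and 1040) and KANSL3 (1439 and 853), PHF20, a methyl-lysine reader (1214 and 769), WDR5 (808 and 1979), HCFC1 (2440 and 2492) and MCRS1. OGT, the enzyme that attaches N-acetylglucosamine to proteins, had YY1 (593 bp) and no MCRS1 peak. OGT lies on chromosome X, a point taken up below.

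Genes needed in every cell had both factors in nearly all cases, beside 56.8% of all coding genes. Both were at 78 of 79 cytosolic ribosomal protein genes, 78 of 78 mitochondrial ribosomal protein genes, 37 of 37 genes of respiratory complex I, 37 of 37 tRNA synthetase genes, 36 of 39 proteasome genes and 21 of 24 genes of cholesterol synthesis. The ribosomal gene RPS2 and the complex I gene NDUFB10, both on chromosome 16, had the same widest shared place of their groups (3166 bp). In the other groups it was at MRPS18B (3935 bp), PSMB3 (6442 bp), KARS1, the lysyl-tRNA synthetase (2201 bp), and TM7SF2, a sterol reductase (1736 bp). The proteasome genes with neither were PSMA8 and PSMB11, subunits known from testis and thymus, and the cholesterol gene with neither was INSIG1; these 3 were named after their values were seen. MCRS1 alone was at none of these genes, beside 1.32% of all coding genes.

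Liver genes split by kind. Both factors were at 26 of 30 liver transcription factor genes and 35 of 49 plasma protein genes, but at 14 of 40 genes of liver metabolic enzymes (86.7%, 71.4% and 35.0%, beside 56.8% of all coding genes). MCRS1 was wide at the first 2 groups, with medians of 2544 and 2662 bp over members with a peak, against 1147 bp over all genes with MCRS1. YY1 was wider than over all genes with YY1 at the first group and narrower at the second, with medians of 1202 and 678 bp against 908 bp. APOB had 13124 bp of MCRS1 and 2436 bp of YY1, APOA1, the protein of high-density lipoprotein, 10159 and 4371 bp, and CEBPB, a liver transcription factor, 5302 and 3791 bp. FOXA2, a pioneer factor of the liver, had 4618 and 3414 bp. The members with MCRS1 alone were NR1I3, a drug-sensing receptor (488 bp), and SERPING1, the C1 inhibitor (809 bp). YY1 alone was at enzyme genes such as SULT2A1 (304 bp) and UGT2B7 (299 bp), and at the clotting genes SERPINC1 (298 bp) and F12 (187 bp). Among enzyme genes with both, the widest shared were CYP27A1 (1220 bp), HPD (881 bp) and ALDH2 (866 bp).

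Immediate-early genes, which respond fast to signals, had both factors in 26 of 28 cases (92.9%, beside 56.8% of all coding genes), with a median MCRS1 width of 2347 bp. IER2 had 7331 bp of MCRS1 and 2496 bp of YY1, and KLF2 had 211 bp of MCRS1 and no YY1. Of the zinc-finger genes of chromosome 19, 179 of 246 had both (72.8%), 5 MCRS1 alone (2.03%) and 18 YY1 alone (7.32%), the last 2 shares near the 1.32% and 5.77% of all coding genes. Among the zinc-finger genes, ZNF700 had 1796 shared bp, ZNF480 534 bp of MCRS1 alone and ZNF175 664 bp of YY1 alone.

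Genes known from other tissues had neither factor in more cases than the 36.1% of all coding genes. Of 381 olfactory receptor genes 378 had neither (99.2%), and OR1F1 was the member with both (1148 shared bp). Of 30 blood cell genes 24 had neither (80.0%) and 6 had both, among them RUNX1 (1839 shared bp) and GATA2 (1521 bp). Of 30 neuronal genes 16 had neither (53.3%), 9 had both, such as the tubulin gene TUBB3 (3013 bp), and 5 had YY1 alone, such as GAD1 (377 bp). Of 39 HOX genes, which set position along the body, 30 had neither (76.9%), 5 YY1 alone and 4 both, with HOXD1 the widest (2047 shared bp). INO80 was at 19 HOX genes (48.7%) and 11 blood cell genes (36.7%), both below its 63.7% of all coding genes. For comparison, 4 HOX and 6 blood cell genes had MCRS1, and 9 and 6 had YY1.

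**Figure D3:**
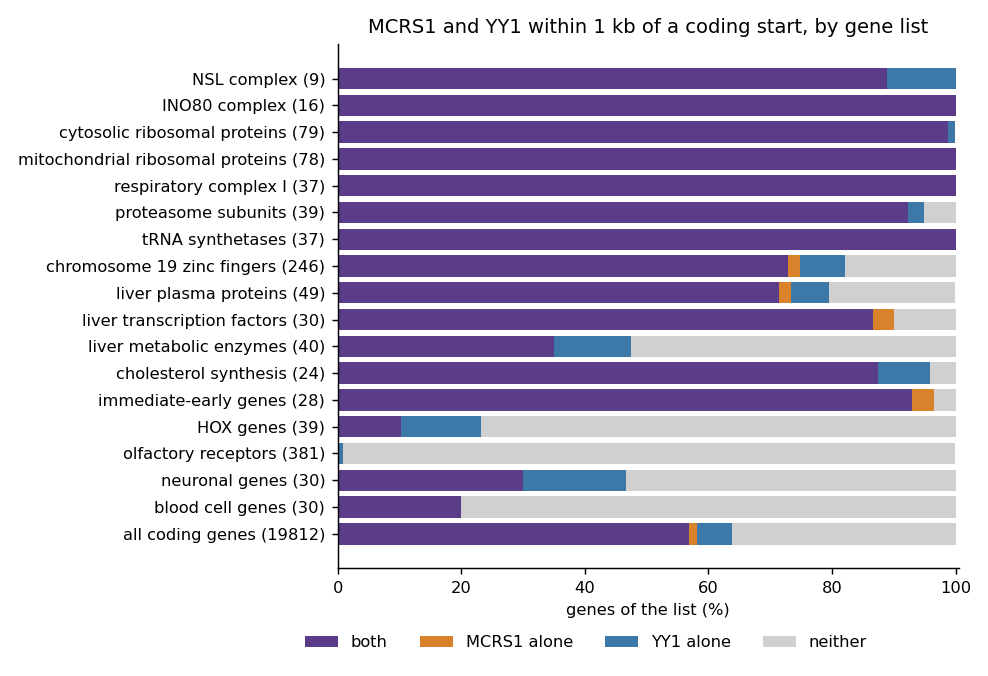
Percent of the genes of each list (number in brackets) with both factors, MCRS1 alone, YY1 alone or neither within 1 kb of a coding start; the bottom bar gives all 19812 coding genes. The bars of the ribosomal, complex I and synthetase lists are filled almost wholly by both, and those of olfactory receptor and HOX genes mainly by neither.

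On chromosome X YY1 was more often present at promoters without MCRS1 than on the autosomes. Chromosome Y, with 94 YY1 peaks, had MCRS1 at 11.7% of them, and of its coding genes 8 had both and 7 YY1 alone. This comparison was made after the exceptions in the lists had been seen. Of the 8 lists of complexes and general functions (NSL, INO80, both kinds of ribosomal proteins, complex I, proteasome, tRNA synthetases, cholesterol synthesis), 304 of 307 autosomal genes had both and none had YY1 alone. Of their 11 genes on chromosome X, 6 had both and 5 had YY1 alone: OGT (593 bp of YY1), RPL36A, a ribosomal protein gene (587 bp), PSMD10, a proteasome assembly factor (515 bp), and the sterol enzymes NSDHL (631 bp) and EBP (595 bp). The X-linked members with both were HCFC1, the ribosomal genes RPL10, RPL39 and RPS4X, and the complex I genes NDUFA1 and NDUFB11.

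Over all coding genes, 44.7% (39.5 to 50) of the 338 genes with YY1 on chromosome X also had MCRS1, against 92.1% (91.6 to 92.6) of the 12040 on the autosomes, where single chromosomes ranged from 88.7% to 95.9%. The gap held at matched YY1 width: for genes whose widest YY1 peak was over 500 and up to 1000 bp, MCRS1 was at 54.1% (45.7 to 62.3) of 135 genes on chromosome X and 97.8% (97.4 to 98.2) of 4454 on the autosomes. In that band INO80 was at 61.5% on chromosome X and 94.8% on the autosomes, and RUVBL2 at 2.96% and 60.2%. YY1 in Huh7 was also lower there, at 55.6% and 81.0% of these genes. YY1 itself was less frequent on chromosome X: over all coding genes it was at 39.2% there and 63.8% on the autosomes in HepG2, and at 19.6% and 53.1% in Huh7. YY1-alone genes on chromosome X had YY1 peaks of a median of 442 bp, against 247 bp for YY1-alone autosomal genes. Where both were present on chromosome X, MCRS1 peaks were narrow, with a median of 304 bp against 1175 bp on the autosomes, and YY1 had medians of 742 and 972 bp.

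In Huh7 the share of YY1 genes with MCRS1 was 17.2% of 169 on chromosome X and 40.9% of 10030 on the autosomes. HepG2 is known to carry extra copies of several chromosomes, and the copy number of these cells and the reads per chromosome were not measured, so their part in the gap was not tested. MCRS1-alone places were most frequent on chromosomes 20 (26.0% of places), 16 (21.7%), 17 (19.9%) and 14 (17.4%), against an autosomal median of 10.1%. Of the chromosomes that are known as gained in HepG2 (2, 14, 16, 17 and 20), all 5 together held 41.9% of the MCRS1-alone places, 29.6% of those with both and 24.1% of those with YY1 alone. Chromosome 2 of this set had MCRS1 alone at 12.2% of its places. That was below chromosomes 21 (16.6%), 6 (13.9%), 22 (13.2%) and 19 (12.8%), which are not in the set.

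**Figure D4:**
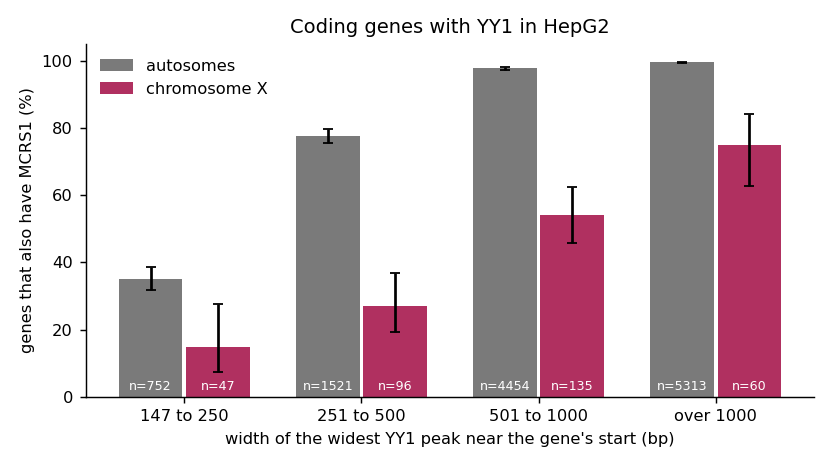
Percent of coding genes with YY1 in HepG2 that also have MCRS1 within 1 kb of a start (vertical axis), by the width of the widest YY1 peak in bp, for autosomes and chromosome X; bars have 95% Wilson intervals and n is the number of genes. In the third band the values are 97.8% and 54.1%.

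The YY1 letters AANATGGC were searched on both strands in the 200 bp about each peak's centre. They were at 6.59% (6.14 to 7.06) of YY1 peaks at shared promoters, at 8.07% (6.89 to 9.43) of YY1-alone promoters and at 1.38% (0.771 to 2.45) of MCRS1-alone promoters. In windows 2 kb beside these promoter peaks the shares were 4.14%, 3.49% and 3.51%. The first 2 values were thus above their surroundings and the MCRS1-alone value below. Base composition was not matched: the median share of G and C was 68.5%, 65.0% and 63.5% at these peaks. Beside them it was 46.0%, 48.0% and 50.5%, and its part in these gaps was not tested. Windows centred on all coding starts, a set that includes the starts of shared promoters, had 6.70%. At distal places they were at 4.89% of shared YY1 peaks and 10.7% (10.3 to 11.1) of YY1-alone peaks, and at 4.04% of MCRS1-alone peaks. In windows 2 kb beside these distal peaks the shares were 4.04% (3.74 to 4.36), 3.68% and 4.10%. The shared value (4.43 to 5.40) was thus slightly above that of its surroundings, and the MCRS1-alone value was not above it. Among distal MCRS1-alone peaks without words of the Alu repeat, described below, the share was 2.02% (1.60 to 2.54). The windows beside the peaks were not split in this way. A match is a description of letters and not a measured site.

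Strand and position of the letters at a gene's start went with the class. Letters and peaks were each counted at any coding start of a gene, so they may lie at different starts. The number of starts per gene was not matched. Of the 955 genes with AANATGGC on their own strand in the first 60 bp downstream of a start, as at ACTR5 and HCFC1, 87.6% (85.4 to 89.6) had both factors. With the letters on the other strand in the same stretch the share was 77.8% (73.5 to 81.6) of 397 genes, with them in the 60 bp upstream 81.6% of 477, and with none within 100 bp of a start 54.3% of 17894. MCRS1 alone was at 1 of the 955 genes, and the letters lay within 100 bp of a start in 1.91% of the 262 MCRS1-alone genes against 13.7% of the genes with both.

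Other letters were also counted at promoters. GGGCGG, read by the SP and KLF factors, was at 56.5% of YY1 peaks at shared promoters, 45.9% at YY1-alone and 38.1% of MCRS1 peaks at MCRS1-alone promoters, along with a median of 19, 14 and 10 CpG in the 200 bp. ACTTCCGG, the ETS letters, was at 4.34%, 1.25% and 0.752% of the same windows, and GCGCATGCG, read by NRF1, at 1.42%, 0.909% and 0.125%. Over all coding starts the shares were 48.3% for GGGCGG, 4.66% for ACTTCCGG and 1.72% for GCGCATGCG, with a median of 16 CpG. The intervals of shared promoters and of all starts overlapped for the ETS and NRF1 letters. Windows at starts are centred on the start and the others on a peak, so the 2 kinds are not matched in position. TGTTTAC, read by FOXA factors of the liver, was at 5.75% of shared distal YY1 peaks and 1.88% of MCRS1-alone distal peaks, beside 2.12% and 2.38% of windows next to them.

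Recurrent 12-base words were looked for under the distal YY1-alone peaks, and letters read by CTCF were searched after these had been seen, so the frequency of either in those peaks is a description. The CTCF letters were at 8.80% (8.40 to 9.21) of them, against 0.112% of windows 2 kb beside them, 2.97% of shared distal YY1 peaks and 0.148% of MCRS1-alone distal peaks. INO80 was at 4.91% of the YY1-alone places with these letters and no LINE-1 words, below the 8.68% of all distal YY1-alone places without LINE-1 words.

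The recurrent words were those of the LINE-1 element, named from background knowledge since no repeat annotation was used, a self-copying repeat whose 5′ end is its promoter and is known to hold a YY1 site. A window was counted when it held at least 5 of 172 12-base words that recur under distal YY1-alone peaks; since the words were taken from those peaks, their frequency there is no finding. They were at 17.6% (3309) of the distal YY1-alone peaks, 0.0373% of windows beside them, 1.24% of shared distal YY1 peaks and 0.0634% of MCRS1-alone distal peaks. Huh7, which was not used to find the words, held YY1 at 61.6% (59.9 to 63.2) of the 3309 places and at 6.08% (5.71 to 6.46) of the 15469 other distal YY1-alone places. INO80 in HepG2 was at 0.272% and 8.68% of them, while INO80 in Huh7 was at 21.7% and 4.24%. MCRS1 in Huh7 was at 5.53% (4.80 to 6.36) and 0.815% (0.685 to 0.969), so the absence of MCRS1 that defines these places holds for HepG2 only.

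The most frequent word occurs 6788 times in hg19, of which 45.7% lay under YY1 in HepG2, 26.6% under YY1 in Huh7 and 1.21% under MCRS1 in HepG2. Of the 1807 copies under YY1 in Huh7, 96.3% were also under YY1 in HepG2. In 86.2% of the 2833 distal YY1-alone places with this word near the peak centre, AANATGGC lay 400 to 520 bp before the word, and the peak centre was a median of 436 bp beyond those letters, so the peaks do not centre on them. Copies of a LINE-1 are nearly alike, and the sources used here do not say how reads with several matches were treated, so which part of a copy draws the peak is uncertain. The word holds the FOXA letters TGTTTAC on its other strand, and these letters were at 20.4% of all distal YY1-alone peaks and 5.15% of those without LINE-1 words. On chromosome X 31.3% of YY1 peaks had these words against 8.10% on the autosomes, and without them the share of YY1 peaks with MCRS1 was 26.8% there and 52.5% on the autosomes (18.5% and 48.5% with all peaks).

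The words that recur under MCRS1-alone distal peaks were those of Alu, the most common repeat of the human genome, and their share there was likewise fixed by the choice of words and is no finding. At least 5 of 80 words taken from these peaks were at 26.7% (25.4 to 27.9) of them and at 17.8% (17 to 18.5) of windows beside them. In the other distal classes they were at 6.60% of shared MCRS1 peaks (17.6% beside them), 3.88% of shared YY1 peaks (17.3%) and 2.63% of YY1-alone peaks (13.0%). Over all peaks in HepG2 they were at 8.32% for MCRS1, 9.52% for INO80 and 2.38% for YY1. In Huh7 the shares were 3.17%, 4.53% and 9.47%. The order of MCRS1 and YY1 thus turned between the lines, and factor and source of the list cannot be told apart in HepG2. INO80, which was not used to find the words, was at 34.4% (31.8 to 37.1) of the MCRS1-alone distal places with Alu words and 25.8% (24.3 to 27.2) of those without, and RUVBL2 at 11.3% and 17.5%. MCRS1 in Huh7 was at 0.792% and 2.30%. Without peaks that hold Alu words, 79.9% of MCRS1 peaks overlapped YY1.

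**Figure D5:**
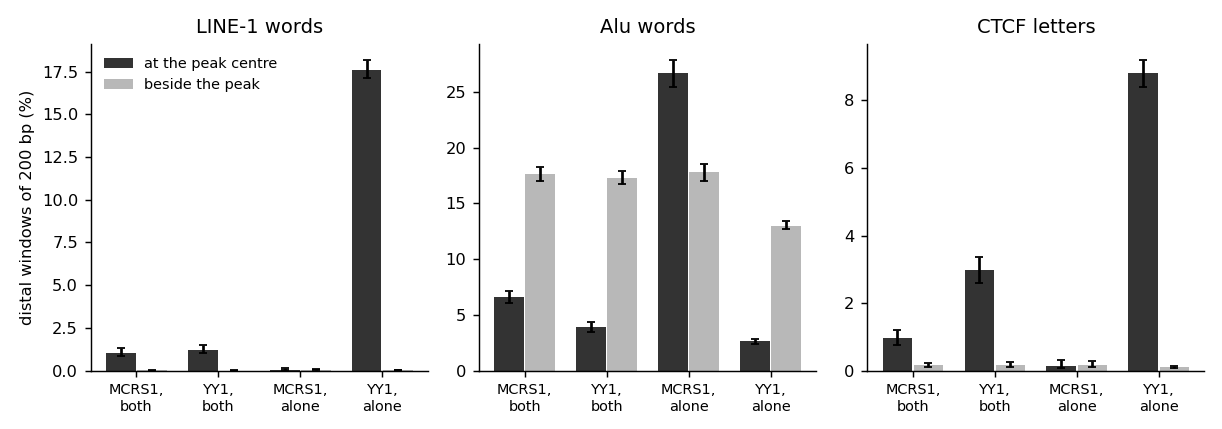
Percent of distal 200 bp windows (vertical axes, different scales) with LINE-1 words, Alu words or CTCF letters, at peak centres (dark) and 2 kb beside them (light), with 95% Wilson intervals; each pair of bars is named by the factor whose peaks are used and its class. The tallest bars are YY1 alone for LINE-1 words (17.6%) and CTCF letters (8.80%) and MCRS1 alone for Alu words (26.7%); the LINE-1 and Alu words were taken from these same peaks.

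Surroundings of the distal classes differed as well. Distal YY1-alone places lay furthest from genes, a median of 30960 bp from a coding start, against 19684 bp for both and 12600 bp for MCRS1 alone. Those of MCRS1 alone were in introns of coding genes in 46.8% and in exons in 12.8%, those of both in 34.0% and 14.5%, and those of YY1 alone in 39.2% and 7.16%. The start of a long non-coding RNA lay within 1 kb of 15% (14.2 to 15.9) of the distal places with both, 5.77% (5.14 to 6.47) with MCRS1 alone and 5.65% with YY1 alone.

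In Huh7 the shared places of HepG2 were again the most occupied. YY1 was there at 79.8% of the shared HepG2 promoters and 32.3% of the shared distal places, and MCRS1, whose Huh7 list is short, at 34.9% and 13.3%. At MCRS1-alone promoters Huh7 had YY1 in 21.5% and MCRS1 in 3.50%, so a promoter that held MCRS1 without YY1 in HepG2 held it without YY1 in Huh7 in 1.25% of 800 cases. Of the YY1-alone promoters 17.7% had YY1 and no MCRS1 in Huh7, and 3.01% had both. The Huh7 lists share the pipeline with the HepG2 lists, and their depth is unknown.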

How the data were processed

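Each list the authors deposited holds the positions of 1 factor's peaks in 1 line (unit other: chromosome, start and end) and no binding score. Per the submitters' processing notes Bowtie2, SAMtools, MACS2, bedtools and deepTools were used, with the builds hg19 and dm3. Single-library or pooled peak calling and the treatment of reads with several matches are not given in the sources used here. The list lengths can follow library depth, which is unknown.

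Overlaps, places, distances and letter counts were computed in Python 3.11.15 with pandas 2.3.3, pysam 0.24.0 and the GRCh37 assembly and GENCODE annotation (55871 coding starts), and checked on simulated peaks. No peak passed a chromosome end. All entries of the 17 gene lists matched a gene. The members and lists were chosen with earlier results of these data known; LINE-1 and Alu words, CTCF letters, the comparison of chromosome X and 3 of the printed sequences were added later. Named places are the 5 widest of each class, and named genes all members of the 2 complexes and, per further list, the 3 with the widest shared bp, 2 of MCRS1 alone and 2 of YY1 alone, of which some are given as counts. Printed sequences are the widest place per class with the letters AANATGGC within 100 bp of the centre of its narrowest peak, off chromosome 8, and for MCRS1 alone also without them; 120 bases are shown, or 30 where more would cover a UTR. Some items chosen by these rules are not reported here. With 1 list per factor no test between conditions was made.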

Additional observations from a re-analysis of the deposited data

How the results depend on the processing

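Of 86 values of 11 results under 9 alternatives, 35 stayed within the interval of the reported share or within 1.5 times the reported count, and 51 moved; the cause was not tested. When an overlap had to cover at least 50% of the shorter peak, the share of MCRS1 peaks with YY1 was 69.9%, the share of YY1 peaks with MCRS1 was 43.7%, the promoter share was 61.1% for both, 18.3% for MCRS1 alone and 10.1% for YY1 alone and the INO80 share was 85.6% for both. With each peak replaced by the 200 bp around its middle, the share of MCRS1 peaks with YY1 was 49.9%, the share of YY1 peaks with MCRS1 was 29.8%, the promoter share was 56.0% for both, 37.7% for MCRS1 alone and 20.5% for YY1 alone and the INO80 share was 67.5% for both, 33.0% for MCRS1 alone and 12.1% for YY1 alone. With the wider 50% of each list, the share of MCRS1 peaks with YY1 was 91.7%, the share of YY1 peaks with MCRS1 was 57.7%, the promoter share was 73.9% for both, 21.6% for MCRS1 alone and 31.4% for YY1 alone, the INO80 share was 77.7% for both, 38.1% for MCRS1 alone and 13.7% for YY1 alone and the number of genes was 158 for MCRS1 alone and 2458 for YY1 alone. With the YY1 list cut to its widest peaks, as many as MCRS1 has, the share of MCRS1 peaks with YY1 was 69.7%, the share of YY1 peaks with MCRS1 was 71.6%, the promoter share was 62.7% for both and 13.0% for YY1 alone, the INO80 share was 87.6% for both, 35.5% for MCRS1 alone and 16.5% for YY1 alone and the number of genes was 517 for MCRS1 alone and 641 for YY1 alone. Without chromosomes 2, 14, 16, 17 and 20, the share of MCRS1 peaks with YY1 was 79.7%, the share of YY1 peaks with MCRS1 was 45.6% and the promoter share was 61.9% for both, 17.9% for MCRS1 alone and 9.58% for YY1 alone. With starts within 5 kb, the promoter share was 65.8% for both, 39.9% for MCRS1 alone and 20.2% for YY1 alone. With the starts of all annotated genes, the promoter share was 17.1% for MCRS1 alone and 13.0% for YY1 alone. Without peaks holding LINE-1 words, an alternative chosen after seeing the data, the share of YY1 peaks with MCRS1 was 51.9%, the promoter share was 10.1% for YY1 alone and the INO80 share was 11.5% for YY1 alone. Without peaks holding Alu words, also chosen after seeing the data, the share of MCRS1 peaks with YY1 was 79.9%, the share of YY1 peaks with MCRS1 was 46.6%, the promoter share was 60.2% for both and 17.5% for MCRS1 alone and the INO80 share was 10.9% for YY1 alone. The INO80 share kept the order both, MCRS1 alone, YY1 alone under all 7 alternatives run for it, and the promoter share under 8 of 9, the exception being the wider 50% of each list. The gene counts do not use the overlap rule, so the stricter overlap left them as they were by construction. No paired analysis was possible because each factor has 1 deposited list and the files give no peaks per library, so leaving out a library was not run either. The lists give no height or depth: an absent peak may be a peak below the caller's threshold, and the greater overlap of wide peaks bears on each class.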
